A study of Mus musculus with 14 samples.

Results

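The genes described here are 10 that mark the glands and surface of the stomach, namely the gastrokines *Gkn1*, *Gkn2* and *Gkn3*, the trefoil factors *Tff1* and *Tff2*, the mucins *Muc5ac* and *Muc6*, the water channel *Aqp5*, the chief cell enzyme precursor *Pgc* and the proton pump subunit *Atp4a*. They were chosen by name from the 36161 gene names on a mouse expression array, because several of them were higher in intestinal adenomas than in normal intestine, so their levels in adenomas are a description and carry no test. RNA was measured on 14 single-colour Agilent arrays: 3 of small intestine and 3 of colon of C57BL/6J mice, 2 of tissue adjacent to adenomas and 3 of macroscopic adenomas of APCmin/+ mice, and 3 of CT26. The study used adult animals on a C57BL/6J background, and neither a treatment nor an age per sample is given. APCmin/+ mice carry 1 mutant copy of *Apc*, a brake on Wnt signalling, in every cell, and grow adenomas mainly in the small intestine. All pieces were tissue rather than sorted cells, and which stretch of the gut each piece came from is not stated. For its methylation comparison the paper calls the healthy colon and small intestine samples mucosa. The study's sample list puts all adenoma and adjacent pieces under 1 mouse, while the paper's methods name more than 1 APCmin/+ mouse for the study as a whole. Going by the list, the spread among these pieces is a spread between pieces, whereas the small intestine arrays came from separate mice. The list also puts 1 colon sample under an APCmin/+ mouse, against the strain in its label. CT26 is an established colon carcinoma line kept in culture, first derived from a BALB/c mouse.

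Surface mucous cells of the stomach secrete *Gkn1*, *Gkn2*, *Tff1* and *Muc5ac*, which form and stabilise the mucus layer, while the mucous neck cells and the glands of the pylorus make *Tff2* and *Muc6*. *Aqp5* and *Gkn3* are also found in pyloric or mucous neck glands. Chief cells make *Pgc*, the precursor of a pepsin, and parietal cells pump acid with *Atp4a*. Brunner glands, in the first part of the small intestine, share *Tff2* and *Muc6* with the pylorus, so those 2 transcripts alone do not tell stomach from duodenum.

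Every value below is a log2 signal after background subtraction, with the 75th percentile of its array subtracted, so that a difference of 1 is a doubling relative to that percentile. A probe counted as measured where the scanner software marked it as well above background. The 10 genes had 13 probes, and each gene was read from its probe of highest mean signal. Values of different probes were not set against each other. A fold written as "at least" is used where no array of the dimmer group was well above background, and it is a lower bound for this background subtraction alone, since some differences were smaller than it in the authors' table or with normexp background correction. A gene was called where the limma adjusted p was at most 0.01 and the log2 difference at least 1.2 in size. Probe positions are in mm9. On single arrays 46.8% to 58.2% of probes passed that mark. Colon replicate 3 stood apart, since its correlation over probes was 0.9507 to 0.9687 with small intestine but 0.9344 to 0.9384 with its own group. The median log2 signal of 12 enterocyte genes of the small intestine reached 6.16 on it, against -1.21 on the lowest colon array, so the tests of the 10 genes in colon and the counts of adenomas against colon are given with and without this array. Of 8 epithelial markers, all were well above background on every tissue array, but 3 or 4 on the CT26 arrays, where *Epcam*, *Cdh1*, *Krt19* and *Vil1* were not well above background on any array. The median log2 signal of 6 smooth muscle genes was 4.07 to 4.4 on adenoma and 4.76 to 6.68 on small intestine. It was 4.73 to 6.77 on adjacent tissue and 6.62 to 7.06 on colon. The part of muscle content in the differences below was not tested.

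The 3 gastrokine genes lie side by side on chromosome 6, with the *Gkn1* probe at 87295651 to 87295710, the *Gkn2* probe at 87329285 to 87329344 and the *Gkn3* probe at 87333375 to 87333434, yet they had different patterns over the groups. The 250 bases before the start of each, and of *Muc6*, are printed because these genes are neighbours or moved together with *Gkn3*, and because the list of transcription factors measured below includes GATA factors. They are RefSeq sequences of GRCm38.p6, written 5′ to 3′ on the strand of the gene, and 7 of the 10 genes were found in the RefSeq promoter set. Capitals mark the GATA motif AGATAA and the TATA box motif TATAAA. *Gkn1* lies on the minus strand (chr6:87350916-87351165), *Gkn2* on the plus strand (chr6:87373115-87373364), *Gkn3* on the minus strand (chr6:87388936-87389185) and *Muc6* on the minus strand (chr7:141655394-141655643).
Gkn1: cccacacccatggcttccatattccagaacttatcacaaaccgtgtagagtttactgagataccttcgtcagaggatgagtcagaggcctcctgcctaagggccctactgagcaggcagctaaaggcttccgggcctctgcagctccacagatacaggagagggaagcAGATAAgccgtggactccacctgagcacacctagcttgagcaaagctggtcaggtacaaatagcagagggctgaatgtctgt
Gkn2: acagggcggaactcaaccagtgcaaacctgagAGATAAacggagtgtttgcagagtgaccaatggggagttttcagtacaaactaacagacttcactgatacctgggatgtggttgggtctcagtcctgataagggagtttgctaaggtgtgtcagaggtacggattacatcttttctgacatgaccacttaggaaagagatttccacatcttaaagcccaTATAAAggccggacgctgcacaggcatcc
Gkn3: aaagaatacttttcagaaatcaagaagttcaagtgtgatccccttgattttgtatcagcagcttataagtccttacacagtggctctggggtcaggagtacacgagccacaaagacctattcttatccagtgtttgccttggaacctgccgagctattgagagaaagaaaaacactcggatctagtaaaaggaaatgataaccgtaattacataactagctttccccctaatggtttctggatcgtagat
Muc6: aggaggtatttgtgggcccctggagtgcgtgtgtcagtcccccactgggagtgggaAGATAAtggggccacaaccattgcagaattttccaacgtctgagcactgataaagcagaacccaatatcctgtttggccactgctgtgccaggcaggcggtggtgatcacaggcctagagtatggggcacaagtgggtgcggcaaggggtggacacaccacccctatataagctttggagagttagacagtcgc

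AGATAA, searched on both strands, was found in 3 of the 7 promoters, those of *Gkn1* (82 to 77 bases before the start), *Gkn2* (218 to 213) and *Muc6* (194 to 189), and in 9.99% of 32851 promoters of the same length. TATAAA was found in those of *Gkn2* (29 to 24 bases before the start) and *Pgc* (31 to 26), and in 12.4% of all. No match overlapped another motif. The letters ATCAAAG (a TCF/LEF motif), TTTATNG (a CDX motif) and TGTTTAC (a forkhead motif) were in none of the 7 windows, and in 3.21%, 9.81% and 3.17% of all promoters. A match is a run of letters and not a measured site. The *Gkn3* window, that of a gene with a high signal in adenomas, held none of the 5 motifs, whereas the *Gkn1* window held AGATAA. Only these exact letters were searched, and variants of them were not. The printed *Gkn3* window contains TGATAA, which shares the letters GATAA, and so do those of *Gkn2* and *Muc6*. The *Gkn1* window holds TGATAA on the opposite strand. The contrast of *Gkn3* with *Gkn1* is thus limited to the letters AGATAA, and binding of GATA factors was not tested.

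*Gkn3*, a gastrokine of the mouse pylorus, had log2 signals of 8.01, 8.59 and 7.65 on the adenoma arrays. On small intestine they were -1.78, -0.66 and 2.29, on adjacent tissue 2.03 and 3.65, on colon -2.95, -2.02 and -2.17, and on CT26 -2.69, -3.43 and -2.84. It was well above background on every array, and the adenoma arrays overlapped with no other group. Small intestine replicate 3 lay within the range of adjacent tissue. The mean in adenomas was 8.08 ± 0.48 (SD, n = 3), above small intestine by 8.13, above adjacent tissue by 5.24 and above colon by 10.46 on the log2 scale.

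*Gkn2*, which pairs with *Tff1* protein in gastric mucus, had -0.26, 0.21 and 1.05 on adenoma and -1.67 and -0.05 on adjacent tissue. It was not well above background on any small intestine, colon or CT26 array, where the log2 signals ran from -7.31 to -5.82. Adjacent tissue and adenomas overlapped for this gene, and their means differed by 1.19. Adenomas were at least 28.5-fold above small intestine and at least 28.4-fold above colon. The probe was spotted 10 times on the array, and the SD between spots of 1 array was 0.03 to 0.395. This is a spread within an array and does not measure the spread between tissue pieces.

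*Gkn1*, a product of surface mucous cells, had another order. Its log2 signals were -3.45, -3.91 and -3.33 on adenoma, -3.87 and -3.86 on adjacent tissue, and -1.67, -2.51 and -4.44 on colon, where the third value was not well above background. The 3 small intestine arrays (-5.43, -5.78 and -5.22) and the CT26 arrays (-6.89, -7.44 and -7.45) were not well above background. Adenomas were at least 1.92-fold above small intestine, differed from adjacent tissue by 0.3, and lay 0.69 below colon on the log2 scale. With normexp background correction the small difference from adjacent tissue had the opposite sign, at -0.06.

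**Figure D1:**
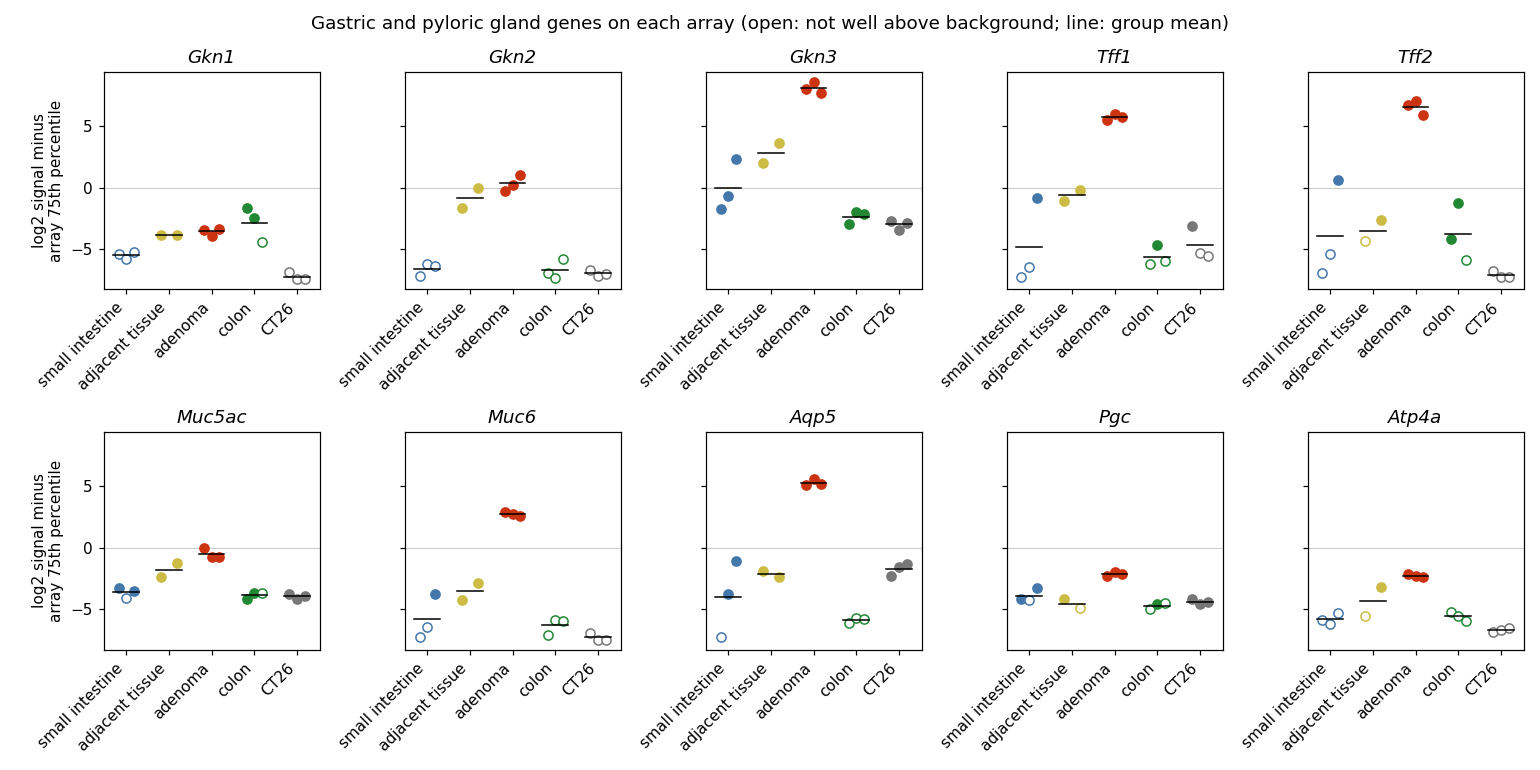
Log2 signal minus the array's 75th percentile (vertical axis) of each of the 10 genes on the 14 arrays, by group along the horizontal axis; each point is 1 array, open where the probe was not well above background, and the line is the group mean. *Gkn3*, *Tff1*, *Tff2*, *Muc6* and *Aqp5* had all 3 adenoma arrays far above the rest, *Gkn2* overlapped between adjacent tissue and adenoma, and *Gkn1* was highest on 2 colon arrays.

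The trefoil factors are small secreted peptides that protect the mucosa. *Tff1*, the form of the gastric surface, had log2 signals of 5.47, 5.97 and 5.69 on adenoma and -1.09 and -0.19 on adjacent tissue. Small intestine replicate 3 had -0.86, while replicates 1 and 2, at -7.26 and -6.44, were not well above background. It was well above background on 1 colon array (-4.65) and 1 CT26 array (-3.16). The adenoma mean of 5.71 ± 0.25 (SD, n = 3) was 10.56 above small intestine, 6.35 above adjacent tissue and 11.31 above colon. A further *Tff1* probe, whose position overlaps that of the first, gave 5.82 ± 0.26 in adenomas. The scanner files place both on chromosome 5 (143285577 to 143285641), while RefSeq has *Tff1* on chromosome 17, so neighbours of this gene were not examined.

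*Tff2*, the form of neck, pyloric and Brunner glands, had 6.72, 7.02 and 5.93 on adenoma. Its adjacent values were -2.63 and, not well above background, -4.38. On small intestine it had 0.58 on replicate 3 and -6.94 and -5.38, both not well above background, on the others. Colon had -4.19, -1.28 and, on replicate 3 and not well above background, -5.85, and none of the CT26 arrays measured it. The adenoma mean lay 10.47 above small intestine, 10.06 above adjacent tissue and 10.33 above colon. Among the 10 genes *Tff2* had the largest difference between adenoma and adjacent tissue. *Tff3*, the intestinal trefoil factor of goblet cells, has its probe 16977 bases away on chromosome 17. It fell by 1.47 (log2) in adenomas against small intestine (standard error 0.199, limma adjusted p = 0.00131), from 9.37 to 7.91, and had 7.89 in adjacent tissue.

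Of the gel-forming mucins, *Muc6*, the gland mucin, had 2.92, 2.71 and 2.58 on adenoma, -4.21 and -2.83 on adjacent tissue, and -3.73 on small intestine replicate 3. The other small intestine arrays and all colon and CT26 arrays, at -5.84 or lower, were not well above background. Adenomas were 8.53 above small intestine and 6.25 above adjacent tissue on the log2 scale, and at least 150-fold above colon. *Muc5ac*, the mucin of the gastric surface, had -0.01, -0.77 and -0.76 on adenoma and -2.38 and -1.21 on adjacent tissue. Small intestine, colon and CT26 lay between -4.18 and -3.28, near the limit of measurement. Its differences were smaller, at 3.09 from small intestine, 1.28 from adjacent tissue and 3.32 from colon. Both mucins are on chromosome 7, where the intestinal mucin *Muc2* has its probe 64793 bases from that of *Muc5ac*. *Muc2* had a mean of 5.8 in adenomas, 6.2 in small intestine and 5.12 in adjacent tissue, and was not called in either comparison (limma adjusted p = 0.263 and 0.179). *Muc5b*, 54138 bases from *Muc5ac* on the other side, had -4.49 in adenomas and was not well above background in small intestine.

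*Aqp5*, a water channel of pyloric glands and other secretory epithelia, had 5.09, 5.59 and 5.18 on adenoma and -1.85 and -2.41 on adjacent tissue. On small intestine it had -7.22, not well above background, -3.75 and -1.08, a wide spread within the group, and it was not well above background on any colon array. Its adenoma mean was 9.3 above small intestine and 7.42 above adjacent tissue (log2), and at least 880-fold above colon. A second *Aqp5* probe had 3.34 ± 0.17 (SD, n = 3) in adenomas and was not well above background on any colon array.

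*Pgc* and *Atp4a*, genes of pepsin and acid production, had small or dim signals. The brighter *Pgc* probe had -2.27, -1.94 and -2.13 on adenoma and -4.99 to -3.28 on all other tissue arrays. It lay 1.77 above small intestine, whereas the other *Pgc* probe had -0.79, -0.14 and -0.46 on adenoma and was not well above background on any other array, a difference of at least 16.4-fold. The probes thus disagreed in the size of the difference, not in its direction. *Atp4a* had -2.13, -2.32 and -2.34 on adenoma, -3.16 on adjacent tissue replicate 2 and no other array well above background, with adenomas at least 4.71-fold above small intestine. *Atp4b*, the other subunit of the pump, was well above background on 2 of 3 adenoma arrays, at -4.42 and -5.25, and also on adjacent tissue replicate 2 (-3.95) and 1 CT26 array (-4.71).

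Past both thresholds lay 10 of 10 genes against small intestine, 6 of 10 against adjacent tissue and 9 of 10 against colon, all higher in adenomas. Over all genes tested, 11.3%, 2.4% and 2.07% were called higher in adenomas in these comparisons. Since the genes were picked on this rise, nothing is read from these counts. *Gkn1*, *Gkn2*, *Muc5ac* and *Atp4a* were the 4 that missed the thresholds against adjacent tissue, and *Gkn1* the 1 that missed them against colon. The 3 comparisons share the adenoma arrays. Without adenoma replicate 2 the counts were 6, 0 and 2, without replicate 1 they were 9, 2 and 4, and without replicate 3 they were 8, 1 and 4. Against adjacent tissue, 0%, 0.203% and 0.0944% of all genes tested were called higher in these fits, and 2.4% with all arrays. For the fits against small intestine and colon without an adenoma array, such shares were not computed. Against colon 5 passed without colon replicate 1, where no share was computed. Without colon replicate 3, 9 passed, and 5.03% of all genes tested were called higher. The bounds against colon were then 38.5-fold for *Gkn2*, 204-fold for *Muc6* and 1200-fold for *Aqp5*. The size of the differences for dim genes depended on the background correction: against small intestine, *Gkn2* differed by 6.94 here but by 3.61 in the authors' table and 3.44 with normexp, *Atp4a* by 3.51, 1.27 and 1.1, *Pgc* by 1.77, 0.89 and 0.77, and *Gkn1* by 1.92, 0.56 and 0.33. For *Gkn2*, *Atp4a* and *Gkn1* the latter values lie below the bounds given above. *Gkn3* kept 8.2 and 7.96.

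**Figure D2:**
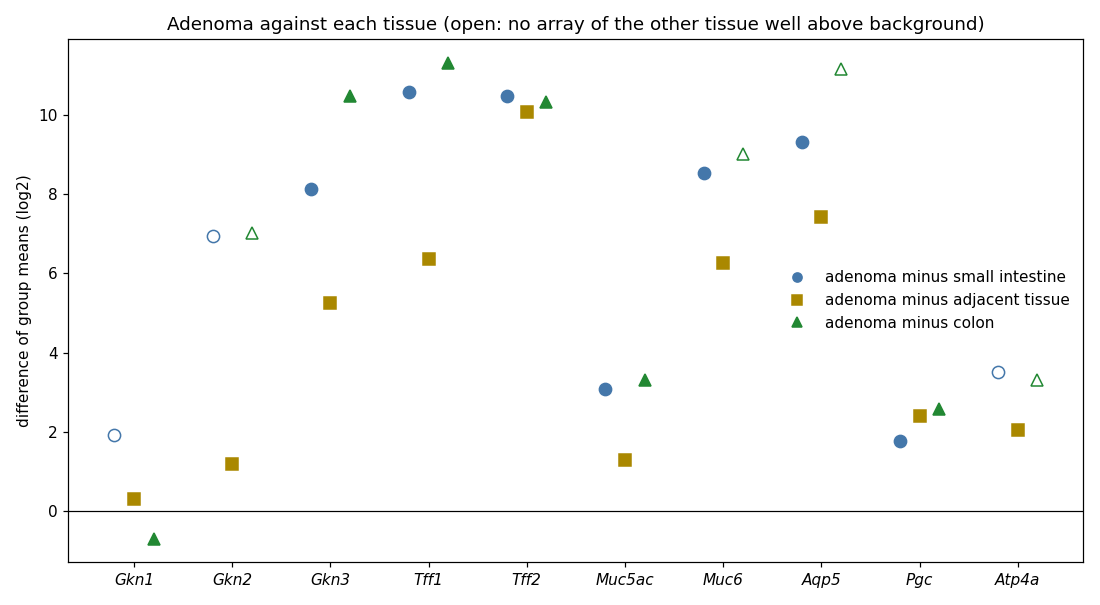
Difference of group means on the log2 scale (vertical axis) between adenomas and small intestine, adjacent tissue or colon for each of the 10 genes; symbols are open where no array of the other tissue was well above background. *Tff2* differed by 10.06 to 10.47 from the 3 tissues (12.72 from small intestine without its replicate 3 and 9.29 from colon without its replicate 3), *Gkn2* by 1.19 from adjacent tissue and 6.94 from small intestine, and *Gkn1* by -0.69 to 1.92.

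Small intestine replicate 3 differed from the other small intestine arrays in these genes. *Tff1*, *Tff2* and *Muc6* were well above background on this array alone of the group, and *Gkn3* (2.29) and *Aqp5* (-1.08) were highest there. Of 38 other stomach genes, 25 were well above background on 1 or more small intestine arrays, and of those 12 were highest and 7 lowest on this array. Replicate 1 was close to it in the first count, with 11 highest and 11 lowest, and replicate 2 had 2 and 7. The other stomach genes as a set thus did not single out replicate 3. *Anxa10* had -0.76 there and -7.26 and -6.44, neither measured above background, on the others, and *Ctse* had -0.55 against -5.97 and -5.98. *Gkn2* was not well above background on it, at -6.4. Without this array the difference of *Tff1* between colon and small intestine changed from -0.75 to 1.25 and that of *Muc6* from -0.48 to 0.55. No remaining array of either group was well above background for *Muc6*, so its value is between background signals. The difference of *Gkn3* between adjacent tissue and small intestine went from 2.89 to 4.06.

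Markers of gut region also differed between these arrays. *Fabp6*, the ileal bile acid binding protein, had log2 signals of 9.95, 1.6 and -1.74 on small intestine, 8.12 and -0.83 on adjacent tissue, and -1.76, -1.42 and -1.78 on adenoma. The summed signal of 4 ileal genes was 10.08, 5.34 and 5.07 (log2) on small intestine, 8.18 and 1.14 on adjacent tissue and 0.75 to 1.03 on adenoma. *Cybrd1*, an iron reductase of the duodenum, had -1.43, -0.85 and -0.79 on small intestine and 4.01, 3.69 and 0.3 on adenoma. *Gip*, the hormone of proximal K cells, had 2.44, 4.59 and 4.63 on small intestine and 1.29 to 1.64 on adenoma. For 5 proximal genes the summed signal was 4.4 to 5.49 on small intestine, 4.4 and 4.97 on adjacent tissue, and 3.79 to 5.4 on adenoma. Their median was -0.79 to 0.84 on small intestine, -0.16 and 0.92 on adjacent tissue, and 0.94 to 3.41 on adenoma. Against small intestine limma called 1 of the 5 higher and 0 lower in adenomas, with a median log2 difference of 2.75. The gene called was *Pdx1*, which is also on the list of other stomach genes below, so the lists overlap in it. Over all genes 11.3% were called higher and 11.1% lower. The arrays thus differed in markers of position as well as in the stomach genes, and the part of position in the stomach genes was not tested.

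Pancreatic acinar genes, which could mark tissue next to the duodenum, were counted too. Of 10 such genes, 4 were well above background on each small intestine and adjacent array and 10, 7 and 5 on adenoma replicates 1, 2 and 3. Their summed signal was 5.64 to 6.2 (log2) on small intestine, 2.95 and 5.2 on adjacent tissue, and 4 to 4.58 on adenoma. *Cpa1* had -2.41 and -3.14 on adenoma replicates 1 and 2 and was not well above background on replicate 3 (-6.14), where *Gkn3* had 7.65, *Tff2* 5.93 and *Muc6* 2.58. *Pnliprp1* was higher on all adenoma arrays (2.44, 3.57 and 3.38) than on small intestine (-1.99 to -0.35). The part of acinar tissue in the stomach genes was not tested.

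**Figure D3:**
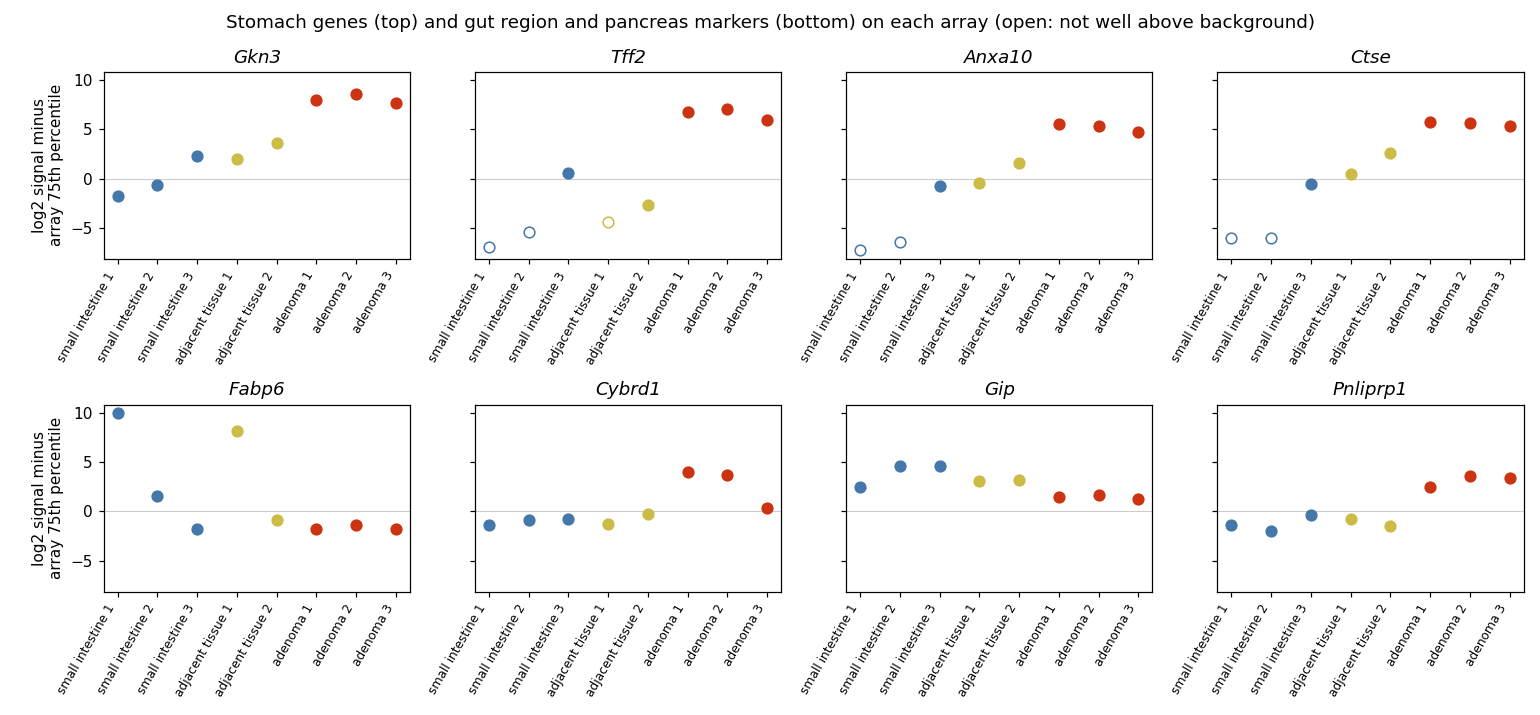
Log2 signal minus the array's 75th percentile (vertical axis) of *Gkn3*, *Tff2* and the stomach genes *Anxa10* and *Ctse* (top) and of the ileal gene *Fabp6*, the duodenal gene *Cybrd1*, the K cell hormone *Gip* and the acinar gene *Pnliprp1* (bottom) on the small intestine, adjacent and adenoma arrays along the horizontal axis; open points were not well above background. *Fabp6* was 8.12 or higher on 1 small intestine and 1 adjacent array. *Gkn3*, *Tff2*, *Anxa10* and *Ctse* were higher on small intestine replicate 3 than on the other small intestine arrays.

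Adjacent tissue against healthy small intestine was not the contrast used to choose the genes, and it was tested. The choice rested on a rise over normal intestine, so genes low on these small intestine arrays were favoured and the test is not independent of the choice. This holds for the colon arrays in the comparisons below as well. Of the 10 genes, 7 were measured well enough to test, and limma called 0 of them, where 0.00925% of all genes tested were called (2 of 21632). At an unadjusted p under 0.05 there were 3, *Gkn1*, *Gkn2* and *Muc5ac*, each with both adjacent arrays above all small intestine arrays, while 30.6% of all genes tested had such a p. *Gkn1* and *Gkn2* entered the test through adjacent tissue alone. *Gkn2* was at least 12.4-fold higher in adjacent tissue, a log2 difference of 5.75 (standard error 0.546, limma adjusted p = 0.0344). *Gkn1* was at least 1.55-fold higher (log2 difference 1.62, standard error 0.243, limma adjusted p = 0.0467), and *Muc5ac* had a log2 difference of 1.81 (standard error 0.422, limma adjusted p = 0.0703). *Gkn2* passed both thresholds when all 5 groups shared 1 fit (limma adjusted p = 0.000776), and its adjusted p was 0.024 to 0.0988 in the other fits. The differences of *Gkn2*, *Gkn1* and *Muc5ac* were 2.53, 0.33 and 0.97 in the authors' table (limma adjusted p = 0.0565, 0.204 and 0.129) and 2.43, 0.39 and 0.98 with normexp (limma adjusted p = 0.0343, 0.273 and 0.0839). With every probe tested the limma adjusted p were 0.053, 0.109 and 0.156, and among probes above background in both groups only *Gkn3* could be tested, and it was not called. *Gkn3*, *Tff1*, *Muc6* and *Aqp5* had log2 differences of 2.89, 4.21, 2.28 and 1.88, and their groups overlapped through small intestine replicate 3 (limma adjusted p = 0.172, 0.19, 0.204 and 0.46). The adjacent pieces are listed under 1 mouse, so these adjusted p do not measure the spread between APCmin/+ mice. Between tissue pieces, a change in the number of cells of a type and a change in RNA per cell cannot be told apart.

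Colon against small intestine gave 1 testable gene, *Gkn3*, with a log2 difference of -2.33 (standard error 0.988, limma adjusted p = 0.217), and 0 genes were called (0 of them also at an unadjusted p under 0.05, and 0.00969% of all genes by the thresholds). Without colon replicate 3, 4 genes could be tested and 1 was called, *Gkn1*, higher in colon by 3.39 (log2, standard error 0.336, limma adjusted p = 0.00241), as 3.34% of all genes were. It could be tested there because the colon array on which it was not well above background had been left out, and it entered through colon alone. With every probe tested on those arrays the limma adjusted p was 0.00441. With all 3 colon arrays, 2 of them well above background, *Gkn1* was at least 3.09-fold above small intestine, and every colon array lay above every small intestine array. It was the 1 gene of the 10 with its highest mean in colon.

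The CT26 line was compared with colon, its tissue of origin. *Aqp5* was called higher in the cell line, as 21% of all genes tested were, and it was the 1 gene called of 4 tested. Its log2 signals were -2.27, -1.58 and -1.35 on CT26, while the colon arrays at -6.13, -5.68 and -5.81 were not well above background, a difference of at least 6.77-fold (log2 difference 4.14, standard error 0.338, limma adjusted p = 5.43e-05). It entered the test through CT26 alone, and with every probe tested it was also called (limma adjusted p = 0.000123). The log2 difference was 1.98 in the authors' table and 1.52 with normexp, called in both and smaller than that bound. Within the slides it was 3.87 and 4.38, and with each array left out it ranged from 3.94 to 4.4. The second probe was at least 2.02-fold higher (limma adjusted p = 0.00342). The CT26 mean of -1.73 was below the adenoma mean of 5.29. *Gkn1* and *Tff2* were not well above background on any CT26 array. Colon was at least 4.3-fold and at least 2.31-fold above CT26 in them, untested over all arrays, and without colon replicate 3 both were called lower in CT26 (limma adjusted p = 3.29e-05 and 0.00268), as 19.4% of all genes were then and 16.2% over all arrays. Both entered that test through colon alone, and both were also called with every probe tested (limma adjusted p = 4.72e-05 and 0.00359). *Gkn3* and *Pgc* differed by -0.6 and 0.3 (limma adjusted p = 0.209 and 0.423), *Pgc* by -0.27 with normexp, and *Muc5ac* by -0.1 (limma adjusted p = 0.795), with a sign that turned, to 0.18 in the authors' table and 0.47 after quantile normalization.

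A list of 38 other stomach genes was then tested in adenomas, with 25 of them measured well enough against small intestine. Limma called 11 higher and 4 lower, where 11.3% of all genes were called higher and 11.1% lower. *Anxa10*, *Ctse*, *Vsig1*, *A4gnt*, *Pdx1*, *Gif*, *Lipf* and *Slc26a9* entered the test through adenomas alone. The list was chosen with earlier results of these data known, so these counts are not independent of the data. The adenoma pieces are listed under 1 mouse, so the adjusted p do not measure the spread between APCmin/+ mice. The 3 largest rises on the list were of genes of surface and pit cells. *Anxa10*, an annexin of the gastric surface, rose by 10 (log2, standard error 1.559, limma adjusted p = 0.00231), from -4.82 to 5.18, with 1 small intestine array well above background. *Ctse*, the gastric protease cathepsin E, rose by 9.73 (standard error 1.373, limma adjusted p = 0.00154), also with 1 small intestine array well above background. *Vsig1*, an adhesion protein of gastric epithelium, was at least 79.1-fold higher (limma adjusted p = 0.000104), and the transcription factor *Foxq1*, needed for gastric surface mucin, rose by 3.04 (limma adjusted p = 0.00273). *Ctse* and *Vsig1* were also measured on colon arrays. There *Ctse* had 3.15, 2.5 and -3.07, and *Vsig1* had 0.43 and -0.65 on replicates 1 and 2. *Anxa10* was not well above background on any colon array. *Capn8* and *Capn9*, calpains of gastric surface cells, fell by 1.84 and 2.12 (limma adjusted p = 0.00422 and 0.000436), so that of 7 surface genes tested 4 rose and 2 fell.

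Of the 5 genes of neck, pyloric and Brunner glands, *A4gnt*, which builds the sugar cap of gland mucin, rose by 1.71 (limma adjusted p = 0.00238), and *Pdx1*, a regulator of antrum, duodenum and pancreas, was at least 10.8-fold higher (limma adjusted p = 0.00335). *Pdx1* had -0.13, -0.19 and -2.89 on the adenoma arrays. *Bhlha15*, a regulator of secretory cells, fell by 1.91 (limma adjusted p = 0.00561). Among chief cell genes, *Gif*, the intrinsic factor gene, was at least 5.2-fold higher (limma adjusted p = 0.00186) and *Lipf*, gastric lipase, rose by 3.83 (limma adjusted p = 0.00124). *Lipf* also had 1.74 and -1.38 on adjacent tissue. *Pga5* and *Chia* could not be tested. Of the 7 parietal cell genes, *Slc26a9*, an anion transporter, rose by 5.67 (limma adjusted p = 0.000207), and the others that could be tested were not called. *Hdc*, the histamine-forming enzyme, rose by 1.47 (limma adjusted p = 0.00699), while *Sst*, somatostatin, fell by 3.24 (limma adjusted p = 0.000104). *Foxa1* rose by 1.85 (limma adjusted p = 0.00669) and was the 1 called of 4 stomach transcription factors tested. *Sox2* and *Barx1*, which define the embryonic stomach, were not well above background on any small intestine, adjacent or adenoma array. *Gata4* and *Gata6* had 2.19 to 2.48 on adenoma and 1.06 to 3.41 on small intestine.

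**Figure D4:**
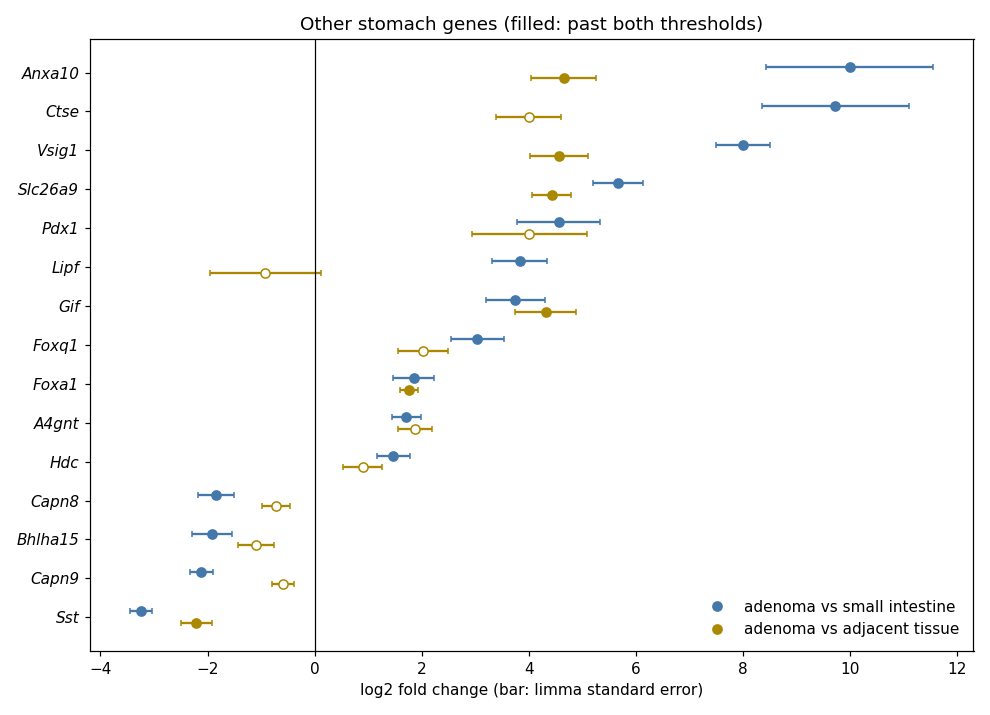
Log2 fold change (horizontal axis) with the limma standard error of the 15 other stomach genes called between adenomas and small intestine, in that comparison and against adjacent tissue; filled points passed both thresholds. *Anxa10*, *Ctse* and *Vsig1*, with 1, 1 and 0 small intestine arrays well above background, had the largest rises, and *Sst* fell in both comparisons.

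Single arrays moved these counts. Without adenoma replicate 2, 6 of the 38 genes were called against small intestine, without adenoma replicate 1, 8, and without small intestine replicate 3, 13. *Ctse*, *Vsig1*, *Lipf*, *Slc26a9*, *Capn9* and *Sst* were called in each of the 7 fits that left out arrays, whereas *Anxa10* was called in 5, *Foxa1* in 1 and *Hdc* in 0. Over the alternative settings the log2 rise ran from 7.61 to 12.03 for *Anxa10*, from 7.67 to 11.54 for *Ctse* and from 3.41 to 6.24 for *Slc26a9*. Without small intestine replicate 3 and adenoma replicate 1 together, left out after their values were seen, 8 were called. Shares over all genes were not computed for these fits, so whether the counts moved with the whole array was not tested.

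Against adjacent tissue 26 of the list were tested, 6 were higher and 2 lower in adenomas, and 2.4% and 1.78% of all genes were. *Anxa10* rose by 4.65 (standard error 0.609, limma adjusted p = 0.00889), *Vsig1* by 4.57 (0.00705), *Slc26a9* by 4.43 (0.00372), *Agr2*, a chaperone for mucins, by 1.78 (0.00921) and *Foxa1* by 1.77 (0.00488), each with its limma adjusted p in brackets. *Gif* was at least 5.14-fold higher (limma adjusted p = 0.00901). *Gif* and *Slc26a9* entered this test through adenomas alone. *Sst* fell by 2.21 (limma adjusted p = 0.00871) and *Aqp4*, a water channel, by 1.65 (limma adjusted p = 0.00842). Leaving out any 1 adenoma array left 0 called by limma, with 14 to 15 of the 26 to 27 tested at an unadjusted p under 0.05, where 29.8% to 30.6% of all genes were. By the thresholds, 0% to 0.203% of all genes were called higher and 0% to 0.00883% lower in these fits. Against colon, of 25 tested, *Anxa10*, *Gif* and *Slc26a9* were called higher and *Capn8* and *Aqp4* lower, where 2.07% and 1.63% of all genes were. *Anxa10* was at least 818-fold above colon (limma adjusted p = 0.000452). The genes called higher, *Anxa10*, *Gif* and *Slc26a9*, entered through adenomas alone. Without colon replicate 3, left out after its values were seen, *Ctse*, *Lipf*, *Ghrl* and *Gata4* were also called higher and *Sult1c2*, *Sstr2* and *Foxa2* lower, making 7 and 5 of 27 tested, where 5.03% and 6.69% of all genes were, and the bound for *Anxa10* was 1110-fold (limma adjusted p = 0.000174).

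Genes linked to gastric metaplasia, the state in which stomach glands take on a pyloric form, were a separate list of 10. This list too was chosen with earlier results of these data known. Against small intestine 6 were called higher and 0 lower, where 11.3% and 11.1% of all genes were. *Cxcl17*, a mucosal chemokine, was at least 20.3-fold higher (limma adjusted p = 4.51e-05), *Clu* rose by 5.97 (limma adjusted p = 0.00018) and *Wfdc2*, a secreted protease inhibitor, by 4.91 (limma adjusted p = 4.67e-05). *Cxcl17* entered this test, and the test against colon given below, through adenomas alone. *Cd44* rose by 3.28 (limma adjusted p = 0.000144), *Sox9* by 3.15 (limma adjusted p = 0.000287) and *Dmbt1* by 1.9 (limma adjusted p = 0.00235). *Cd44* and *Sox9* are also known Wnt targets of intestinal tumours. Against adjacent tissue *Wfdc2* (4.26), *Cd44* (2.24) and *Sox9* (2.17) were called higher, as 2.4% of all genes were, and against colon *Cxcl17*, *Clu* and *Cd44*, as 2.07% were. Without colon replicate 3 the same 3 were called. *Wfdc2* was high on 2 colon arrays too, at 6.9 and 5.17.

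Among 13 intestinal counterparts of these genes, goblet cell and intestinal identity genes, 8 were called lower and 2 higher in adenomas against small intestine, with limma adjusted p of 9.13e-05 to 0.0051, where 11.1% and 11.3% of all genes were. Of 12 enterocyte genes, 8 were also called lower, with a median log2 difference of -3.04, and of 8 epithelial markers 3 were lower and 1 higher. The part of epithelial cell content in these differences was not tested. *Clca3* fell by 2.99, *Muc13* by 2.16, *Zg16* by 1.89, *Cdx1* by 1.75, *Tff3* by 1.47, *Cdx2* by 1.41, *Fcgbp* by 1.3 and *Isx* by 1.25. *Cdx1* and *Cdx2* are the master regulators of intestinal identity, and both remained well above background, at 4.37 and 3.65. *Muc4* rose by 2.58 and *Spdef*, a goblet cell factor, by 1.24. Against adjacent tissue 1 was called, *Spdef*, higher by 1.67.

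**Figure D5:**
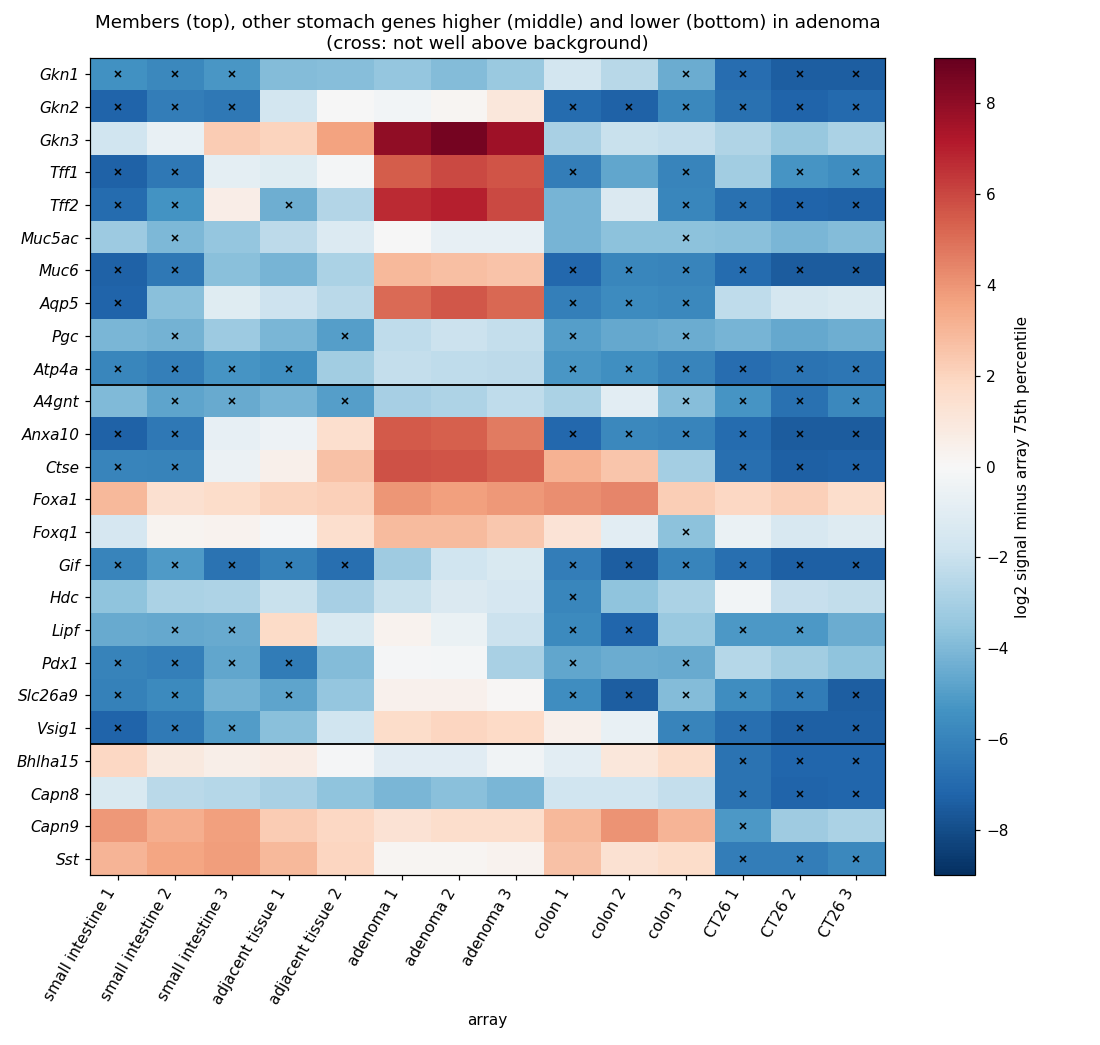
Log2 signal minus the array's 75th percentile (colour) of the 10 genes (top) and of the other stomach genes called higher (middle) or lower (bottom) in adenomas against small intestine, in rows, on the 14 arrays in columns; crosses mark signals not well above background. *Anxa10*, *Ctse* and *Vsig1* were high on the adenoma arrays with *Gkn3*, *Tff1* and *Tff2*, and small intestine replicate 3 and the adjacent arrays lay between the other small intestine arrays and the adenomas in *Gkn3* and *Anxa10*.

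Around the 9 genes with usable positions, 46 other names had a probe within 100000 bases. Against small intestine 31 were tested, and 8 were higher and 4 lower in adenomas, where 11.3% and 11.1% of all genes were. *Faim2*, 97702 bases from *Aqp5* on chromosome 15, rose by 6.25 (standard error 0.272, limma adjusted p = 4.82e-05) and was also called against adjacent tissue (5.25). *Aqp2*, 12560 bases from *Aqp5*, was not called, at -1.41 in adenomas and -2.29 in small intestine, and *Aqp6* was not well above background. An unnamed probe 76 bases from that of *Aqp5*, A_55_P2089219, is among the 8 called higher, at a log2 difference of 9.57. It entered the test through adenomas alone. Its signals followed those of *Aqp5* over the arrays (Pearson r = 0.996), so its rise is not independent of that gene and no test is read from it. *Mdfi*, 82893 bases from *Pgc* on chromosome 17, rose by 6.15 (limma adjusted p = 0.000347). *Bmp10*, beside the gastrokines, fell by 1.43 (limma adjusted p = 0.00497) at a signal near background, *Arhgap25* was not called, and *Ap2a2*, 1609 bases from *Muc6*, fell by 1.66 (limma adjusted p = 0.000745).

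Over the 14 arrays the 10 genes were correlated to different degrees, as a description of arrays that share groups. *Gkn3* and *Muc6* had a Pearson r of 0.98, *Tff1* and *Muc6* 0.971 and *Gkn2* and *Muc5ac* 0.948, while *Gkn1* had 0.057 with *Aqp5* and at most 0.586, with *Atp4a*. Among 21423 other genes measured on all adenoma arrays, those most like *Gkn3* were *Anxa10* (r = 0.987), the coagulation factor gene *F5* (0.984) and *2310042E22Rik* (0.981). Most like *Muc6* were the Brachyury gene *T* (0.988), *Gkn3* and *F5* (0.979). *Tff1* was most like *2310042E22Rik* (0.974), *Muc6* and *Anxa10* (0.967), and *Tff2* like *St8sia6* (0.959), *Muc6* (0.956) and *Tulp2* (0.955). For *Gkn2* these were *Igfbp1* (0.994), *Btbd17* (0.988) and a transcript without a symbol, for *Muc5ac* *Cxcl17* (0.97), *2310042E22Rik* (0.968) and *1500009C09Rik* (0.966), and for *Aqp5* the unnamed neighbour (0.996), *Slc4a11* (0.972) and *Bdh2* (0.934). *Gkn1* was most like *Cbs* (0.972) and *Pla2g2c* (0.971), *Atp4a* like *Prox1* (0.973), *Nfe2l3* and *1500009C09Rik* (both 0.972), and *Pgc* like *Serpind1* (0.942).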

How the data were processed

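Members and gene lists were chosen with earlier results of these data known. The authors hybridised Cy3-labelled RNA to Agilent arrays and deposited the scanner output of each, an intensity per spot from which Feature Extraction 10.7.3.1 had removed background. A deposited table holds log2 values that the authors normalized between arrays by a method not given in the sources used here. That table's fold changes and p-values between groups, and 28 further columns per sample, were not used.

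Control spots and outlier spots (103 to 206 an array) were left out, log2 taken, the 75th percentile of each array subtracted and spots of a probe averaged, giving 55681 probes. For each pair of groups, lmFit and eBayes of limma 3.58.1 (R 4.3.3) were run on its own arrays, over probes that passed the background flag throughout 1 group or both, with Benjamini-Hochberg adjustment over those probes. The thresholds were those of the paper, a log2 difference of 1.2 and an adjusted p of 0.01. For a bound, each array of the dim group was given the dimmest signal flagged as above background, or its own value where larger, and these were averaged. Genes named were the 10 members, listed genes called in the comparison described, neighbours within 100000 bases of a member's probe and the 3 genes most correlated with each member, of which 1 is not reported here. Other genes were named after their values were seen. The method was tested on simulated data. Precision is limited by 2 or 3 arrays a group, and the adenoma and adjacent arrays are listed under 1 APCmin/+ mouse. The adjusted p of their comparisons do not measure the spread between such mice. Against small intestine or colon, mouse and genotype cannot be told apart from tissue. Groups came from the sample labels, and the replicate numbers were not taken to pair samples, since deviations of arrays with the same number correlated at -0.322 to 0.291. Titles and source names number the adjacent arrays differently, and the numbers of the source names were used. Alternatives were the authors' table, quantile normalization, normexp (offset 50), other filters, 1 fit of all 5 groups, blocks for slide or replicate number, an adjusted p of 0.05, any probe of a gene, and leaving out single arrays. Sequences were taken from RefSeq, GRCm38.p6.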

Additional observations from a re-analysis of the deposited data

How the results depend on the processing

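With 2 or 3 arrays a group, a difference that was not called is not shown to be absent, and signals near background understate a difference. Of the 55 differences of single members, none that was called or described as past both thresholds changed sign under an alternative. The alternatives gave the opposite sign in 18 of 475 recomputed values, all for small differences of *Gkn1*, *Tff1*, *Tff2*, *Muc5ac*, *Muc6* or *Pgc*.

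Between adjacent tissue and small intestine, where 0 members were called, 1 was called with all 5 groups in 1 fit and 2 at an adjusted p of 0.05. Between colon and small intestine the count was 0 to 1 over the fits that left out an array, the 1 without colon replicate 3. Between CT26 and colon, where 1 was called, 2 were called with every probe tested and 0 of 1 (also 0 at an unadjusted p under 0.05) among probes above background in both groups, by limma. The range without each array was 1 to 3. Of the other stomach genes, 15 were called against small intestine, 8 with the stricter filter on dim probes and 6 to 17 without each array, and 8 without small intestine replicate 3 and adenoma replicate 1, chosen after seeing the data. Against adjacent tissue 8 were called. With every probe tested limma called 0 (19 at an unadjusted p under 0.05), with all 5 groups in 1 fit 1, with slide as a block 1, and without each adenoma array 0. Fits with a single adjacent array are not counted. With the replicate number as a block 0 were called there (13 at an unadjusted p under 0.05), 13 against small intestine, and it changed no count in the 3 tested comparisons of members. Past both thresholds it left 10, 5 and 5 members in adenomas against small intestine, adjacent tissue and colon, and slide as a block left 10, 5 and 4. Against small intestine 8 members passed in the authors' table, 7 with normexp, 9 with all 5 groups in 1 fit and 1 of 1 tested among probes above background in both groups. Same-numbered arrays did not deviate together in every pair. The titles number the adjacent arrays 2 and 3, where the source names number them 1 and 2. With the numbers of the titles as the replicate block, added after seeing the data, 0 members were called between adjacent tissue and small intestine (6 of 7 at an unadjusted p under 0.05), and 0 other stomach genes (16 of 26 at such a p) and 0 members passed between adenoma and adjacent tissue, in 2 pairs. Same-numbered arrays then correlated in their deviations at -0.141 to 0.208 and at 0.026 to 0.036. Except where a share over all genes is given above, such shares were not computed for the alternatives. A changed count thus cannot be told apart from a change over the whole array. The cause of these changes was not tested.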
